A study of Sus scrofa with 8 samples.

Results

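Transcripts of 10 genes of peroxide and superoxide removal were measured in right ventricular tissue of pigs (Sus scrofa), heterozygous for a PKP2 knockout or wild type. They were taken by symbol from the deposited gene table: GPX1, GPX3 and GPX4 of the glutathione peroxidases, PRDX1, PRDX3, PRDX5 and PRDX6 of the peroxiredoxins, the superoxide dismutases SOD1 and SOD2, and catalase (CAT). All 10 were found among the 30550 genes of the table, and all 10 passed the filter on low values that left 10757 genes for testing. PKP2 codes for plakophilin 2, a desmosomal protein that holds neighbouring cardiomyocytes together, and its heterozygous knockout is presented by the series title as a pig model of arrhythmogenic cardiomyopathy. The heterozygous group (PKP2_het) has 4 libraries, with the genotype written PKP+/- in the protocol, and the wild-type group (WT) has 4 libraries. The labels give no age, sex, breed or litter, and name no treatment, promoter or Cre. They do not say that each library is a separate animal, so p-values reflect how far these libraries spread, which may be partly technical.

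Respiring heart muscle forms superoxide, mainly in its mitochondria. Superoxide dismutases turn superoxide into hydrogen peroxide, SOD2 in the mitochondrial matrix and SOD1 in the cytosol. Hydrogen peroxide is then removed by catalase in peroxisomes, by glutathione peroxidases with glutathione, and by peroxiredoxins through a reactive cysteine that thioredoxin or glutathione restores. GPX1, GPX3 and GPX4 are selenoproteins, whereas superoxide dismutases and catalase use metal ions in place of a thiol or selenium.

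The deposited values are FPKM, fragments scaled for gene length and library size, and correspond to 23637697 to 31313628 fragments on genes per library. PKP2_het replicate 3 stood apart. Mitochondrially encoded genes held 52.1% of its fragments, against 21.1% to 37.6% in the other 7 libraries, and its correlation with libraries of its group averaged 0.949, while the other 7 had at least 0.970. PKP2 itself averaged 39.2 ± 9.99 FPKM in PKP2_het against 62.2 ± 8.17 FPKM in WT (n = 4 each, ± SD). Its groups did not overlap, as for 9.19% of all tested genes. Its limma adjusted p over all tested genes was 0.164. The two-sided exact permutation p was 0.0286, which groups of 4 without overlap always give. The labels name cardiomyocytes as the cell type while the protocol describes whole ventricular tissue. All 10 cardiomyocyte markers in the table were above the filter, led by TNNC1, the cardiac form of troponin C, with a mean of 9643 FPKM in PKP2_het against 8539 FPKM in WT. Endothelial (12 of 12), fibroblast (11 of 11) and smooth muscle and pericyte (11 of 11) markers were above it as well. In bulk tissue, fewer cells of a type and less RNA per cell cannot be told apart.

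The members spanned about an order of magnitude in level per gene length. Over all 8 libraries SOD2 averaged 261 FPKM and ranked 203rd among the tested genes. PRDX3 and GPX4 followed at 227 FPKM each, then SOD1 at 100.4, GPX3 at 96.3, CAT at 69.9, GPX1 at 69.3, PRDX6 at 59.9, PRDX1 at 27.99 and PRDX5 at 27.2 FPKM. Among neighbours in this order, GPX4 and SOD1 were the sole pair whose ranges over the 8 libraries did not overlap, with GPX4 above SOD1 in 8 of 8. The order differed most between the groups for GPX3, which was 4th of 10 in PKP2_het and 8th in WT. PRDX1 was 9th in PKP2_het and 10th in WT, where PRDX6 lay above it without overlap. The summed level of the 10 genes was 1212 ± 253 FPKM in PKP2_het against 1120 ± 52.6 FPKM in WT (n = 4 each, ± SD). The sums ranged from 879 to 1492 FPKM in PKP2_het and from 1068 to 1187 FPKM in WT, so the WT range lay inside the PKP2_het range. PKP2_het replicate 3 had the lowest sum of the 8 libraries.

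**Figure D1:**
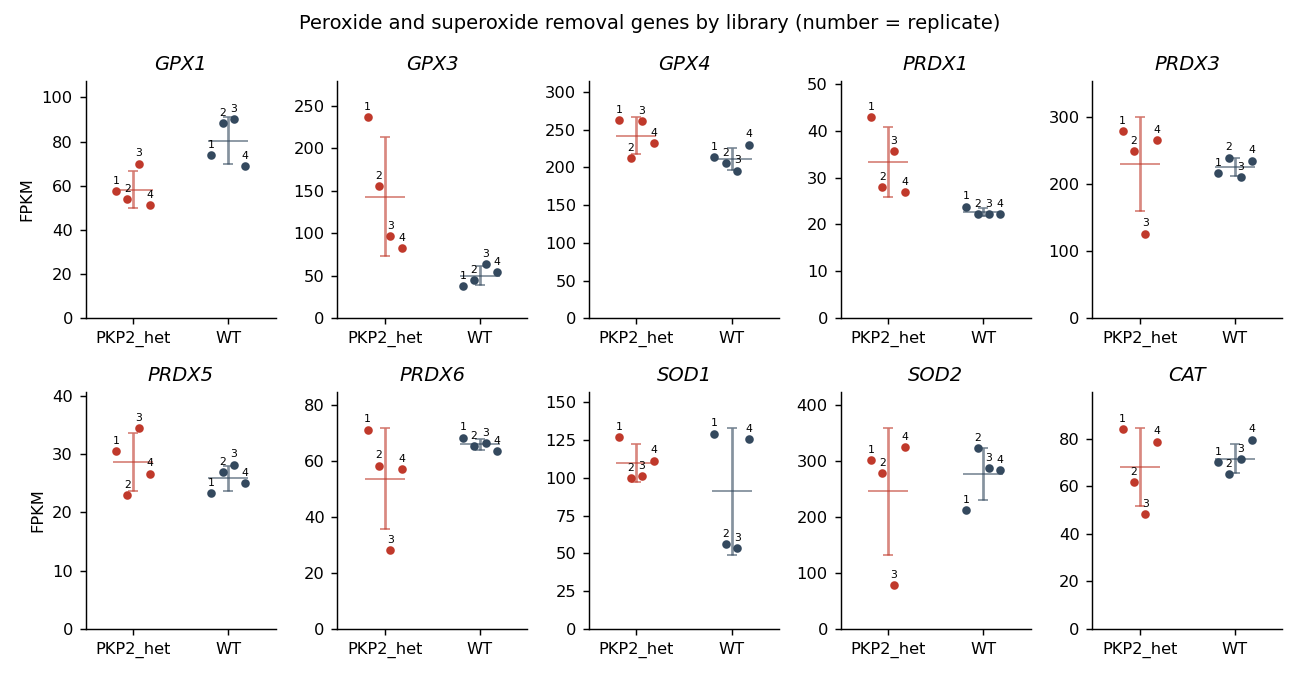
FPKM of each of the 10 genes in every library, with PKP2_het left of WT. Points are libraries numbered by replicate, the horizontal line is the group mean and the bar its SD (n = 4 each). GPX3 and PRDX1 are the 2 genes whose groups do not overlap, and PKP2_het replicate 3 is the lowest point for PRDX3, PRDX6, SOD2 and CAT.

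The comparison asks whether these genes differ in level between heterozygous knockout and wild-type ventricle. GPX3 and PRDX1 were higher in every PKP2_het library than in any WT library, and GPX1 was lower in 3 of 4 PKP2_het libraries than in any WT library. With limma on log2(FPKM + 1) and Benjamini-Hochberg adjustment over 10757 genes, none of the 10 passed an adjusted p of 0.05, beside 200 of 10757 genes (1.86%) called over the whole table. A test with voom on the recovered fragments also called 0 of the 10. GPX1, GPX3 and PRDX1 had an unadjusted limma p under 0.05, which 12.8% of all tested genes had. Groups without overlap were seen for 2 of 10 members, against 9.19% of all tested genes in either direction and 4.86% in the direction of these 2, higher in PKP2_het. On the log2 scale the difference was positive for 5 members and negative for 5, with a median of 0.05, against -0.02 over all tested genes. Without PKP2_het replicate 3 it was positive for 8 of 10, the groups did not overlap for 4 of 10 (GPX1, GPX3, PRDX1 and PRDX3, beside 15.7% of all tested genes over these 7 libraries), and limma called GPX1 and GPX3 (2 of 10, with 2.92% of all tested genes called).

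**Figure D2:**
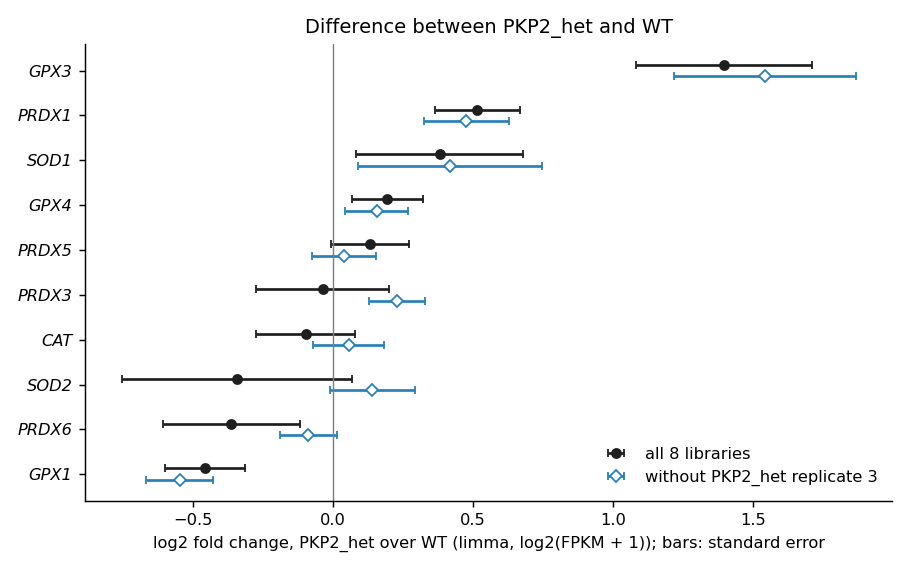
Log2 fold change of PKP2_het over WT for each gene, from limma on log2(FPKM + 1), with its standard error. Filled circles use all 8 libraries and open diamonds leave out PKP2_het replicate 3. GPX3 lies farthest from 0 at 1.40, and PRDX3, SOD2 and CAT change sign when that library is left out.

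GPX3, the glutathione peroxidase that cells secrete into plasma and the extracellular space, showed the largest difference among the 10. It had 236, 155, 96.5 and 82.7 FPKM in PKP2_het replicates 1 to 4, against 37.3, 44.8, 63.9 and 54.2 FPKM in WT replicates 1 to 4. The groups did not overlap, and the spread was wide within PKP2_het, where the highest library had 2.86 times the level of the lowest. The mean was 142.6 ± 69.8 FPKM in PKP2_het against 50.05 ± 11.5 FPKM in WT (n = 4 each, ± SD), a ratio of means of 2.85. Limma's log2 fold change was 1.40 (SE 0.31, 95% interval 0.69 to 2.10). It reached an adjusted p of 0.064 with limma. The exact permutation test gave a two-sided p of 0.0286, its lowest possible value with 70 relabellings, which groups of 4 without overlap always give. With PKP2_het replicate 3 left out, limma gave 1.54 and an adjusted p of 0.0449. Without PKP2_het replicate 4, the lowest of its group, these were 1.61 and 0.0439. Without PKP2_het replicate 1, the highest library, they were 1.11 and 0.102. With all libraries set to equal FPKM sums, which count the mitochondrially encoded genes, they were 1.13 and 0.528, and the exact permutation p was 0.171. With equal nuclear FPKM sums, which leave those genes out, limma gave 1.32 and an adjusted p of 0.0925. GPX3 (gene 396598) lies on the minus strand of chromosome 16 of Sscrofa11.1, from 71980467 to 71989011.

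GPX1, the widespread cytosolic and mitochondrial glutathione peroxidase, lay in the other direction. Its levels were 57.6, 54.1, 70.1 and 51.4 FPKM in PKP2_het, against 74.0, 88.4, 90.4 and 68.7 FPKM in WT. PKP2_het replicate 3 exceeded WT replicate 4, which is the one overlap between the groups. The mean was 58.3 ± 8.27 FPKM in PKP2_het against 80.4 ± 10.7 FPKM in WT (n = 4 each, ± SD), and PKP2_het stood at 72.5% of the WT level. The fitted log2 fold change was -0.46 (SE 0.14, 95% interval -0.78 to -0.14), the limma adjusted p was 0.191 and the exact permutation p 0.0571. Leaving out PKP2_het replicate 3 removes that overlap, and the log2 fold change was then -0.55 with a limma adjusted p of 0.0495. Each other library left out in turn gave a limma adjusted p of 0.243 to 0.471, and equal FPKM sums gave 0.654. The gene (397403) is on the minus strand of chromosome 13, from 31916269 to 31917337.

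GPX4 reduces lipid hydroperoxides within membranes and is the enzyme whose loss opens the way to ferroptosis, an iron-dependent form of cell death. It had 263, 213, 261 and 232 FPKM in PKP2_het and 213, 206, 196 and 230.1 FPKM in WT, so 3 PKP2_het libraries lay above the highest WT library. The log2 fold change was 0.19 with a 95% interval of -0.09 to 0.48, the limma adjusted p was 0.569 and the exact permutation p 0.0857. GPX4 (399537) is on the minus strand of chromosome 2, from 77321568 to 77323931.

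The balance among the glutathione peroxidases can be read within a library, where scaling between libraries cancels. These ratios were chosen with the values known and carry no test. GPX3 over GPX1 was 4.10, 2.86, 1.38 and 1.61 in PKP2_het replicates 1 to 4, against 0.504, 0.506, 0.707 and 0.789 in WT. The GPX3 level thus exceeded that of GPX1 in 4 of 4 PKP2_het libraries and in 0 of 4 WT libraries. GPX4 over GPX1 was 3.73 to 4.57 in PKP2_het and 2.17 to 3.35 in WT, again without overlap. GPX3 made up 6.59% to 15.8% of the summed FPKM of the 10 genes in PKP2_het and 3.49% to 5.86% in WT.

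**Figure D3:**
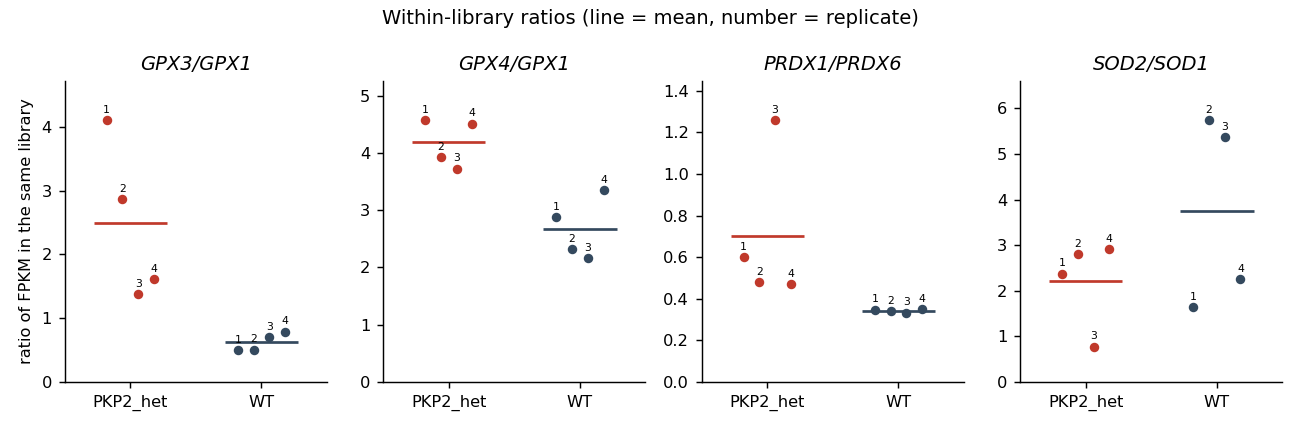
Ratio of the FPKM of 2 genes in the same library, with PKP2_het left of WT. Points are libraries numbered by replicate and lines are group means. GPX3/GPX1, GPX4/GPX1 and PRDX1/PRDX6 do not overlap between the groups, whereas SOD2/SOD1 does.

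PRDX1, a cytosolic peroxiredoxin whose oxidised form is restored by thioredoxin, had 42.9, 27.98, 35.6 and 26.9 FPKM in PKP2_het, against 23.8, 22.3, 22.2 and 22.3 FPKM in WT. The 4 WT libraries lay close together and all 4 PKP2_het libraries lay above them. The mean was 33.3 ± 7.45 FPKM in PKP2_het against 22.6 ± 0.796 FPKM in WT (n = 4 each, ± SD), a ratio of 1.47. The exact permutation p was 0.0286, which follows from the lack of overlap. On the log2 scale the difference was 0.51 (SE 0.15, 95% interval 0.18 to 0.85), with a limma adjusted p of 0.164. With equal FPKM sums it was 0.26, with an exact permutation p of 0.4. With equal nuclear FPKM sums it was 0.44 (limma, adjusted p 0.171). A PRDX1-like pseudogene in the table, LOC100524491, had 0 fragments in all 8 libraries. PRDX1 (100512476) is on the plus strand of chromosome 6, from 165847390 to 165859918.

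PRDX3, the peroxiredoxin of the mitochondrial matrix, had 278, 248, 126 and 264 FPKM in PKP2_het and 216, 239, 210.4 and 234 FPKM in WT. PKP2_het replicates 1, 2 and 4 were above the highest WT library and replicate 3 was below the lowest. Limma's log2 fold change was -0.04 with a 95% interval of -0.57 to 0.50, a limma adjusted p of 0.96 and an exact permutation p of 1.0. Without PKP2_het replicate 3 it was 0.23 (SE 0.10), and the groups did not overlap. The limma adjusted p was then 0.306. The exact permutation test gave 0.0571, its lowest possible p with 35 relabellings, which follows from the lack of overlap. PRDX3 (100154143) is on the minus strand of chromosome 14, from 129079050 to 129090790.

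PRDX6 differs from the other peroxiredoxins in using 1 catalytic cysteine and also has phospholipase activity. It had 71.3, 58.4, 28.3 and 57.1 FPKM in PKP2_het and 68.5, 65.5, 66.4 and 63.6 FPKM in WT. The WT values varied little, and PKP2_het replicates 2, 3 and 4 lay below all of them while replicate 1 lay above. The fitted log2 fold change was -0.36 with a 95% interval of -0.91 to 0.18 and a limma adjusted p of 0.582, and it was -0.09 without PKP2_het replicate 3. Within libraries, PRDX1 over PRDX6 was 0.601, 0.479, 1.26 and 0.471 in PKP2_het, against 0.348, 0.340, 0.334 and 0.350 in WT, without overlap. PRDX6 (399538) is on the plus strand of chromosome 9, from 115857629 to 115868898.

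PRDX5, found in mitochondria, peroxisomes and the cytosol, was the lowest of the 10 by mean level. It had 30.4, 23.0, 34.5 and 26.6 FPKM in PKP2_het and 23.3, 26.8, 28.2 and 25.0 FPKM in WT, and the groups overlapped. The log2 fold change was 0.13 with a 95% interval of -0.18 to 0.44 and a limma adjusted p of 0.724. PRDX5 (397273) is on the minus strand of chromosome 2, from 7798672 to 7801955.

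SOD1, the copper and zinc dismutase, had 127, 99.6, 101 and 111 FPKM in PKP2_het and 129, 56.2, 53.5 and 125 FPKM in WT. Within WT, replicates 1 and 4 were at the level of PKP2_het and replicates 2 and 3 were far below, a spread of 46.0% of the mean (SD), against 11.5% in PKP2_het. On the log2 scale the difference was 0.38 with a 95% interval of -0.29 to 1.05, a limma adjusted p of 0.641 and an exact permutation p of 0.4. It was 0.17 without WT replicate 3, 0.19 without WT replicate 2, 0.57 without WT replicate 4 and 0.59 without WT replicate 1. SOD1 (397036) is on the plus strand of chromosome 13, from 195326573 to 195335273.

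SOD2, the manganese dismutase of the mitochondrial matrix, had 302, 279, 78.1 and 325 FPKM in PKP2_het and 213, 323, 288 and 283 FPKM in WT. PKP2_het replicate 3 was the lowest of the 8 libraries, and the highest PKP2_het library had 4.17 times its level. Limma's log2 fold change was -0.34 with a 95% interval of -1.26 to 0.58 and a limma adjusted p of 0.747. Without PKP2_het replicate 3 it was 0.14 (SE 0.15). A SOD2-like pseudogene in the table, LOC110260366, had 0 fragments in all 8 libraries. SOD2 (100154319) is on the plus strand of chromosome 1, from 7679352 to 7689564.

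Catalase had 84.0, 61.8, 48.2 and 78.7 FPKM in PKP2_het and 70.2, 65.1, 71.5 and 79.6 FPKM in WT. The WT range lay inside the PKP2_het range. The log2 fold change of CAT was -0.10 with a 95% interval of -0.49 to 0.30 and a limma adjusted p of 0.834, and it was 0.05 without PKP2_het replicate 3. The CAT gene (397568) is on the minus strand of chromosome 2, from 26493664 to 26533881.

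A pair of patterns of library values recurred among the 10 genes. PRDX3, PRDX6, SOD2 and CAT had their lowest value of all 8 libraries in PKP2_het replicate 3, the library with the highest mitochondrially encoded share. In that library log2(FPKM + 1) minus the WT mean was -0.83 for PRDX3, -1.19 for PRDX6, -1.80 for SOD2 and -0.56 for CAT. The same difference was positive there for the other members except GPX1, at 0.96 for GPX3, 0.63 for PRDX1, 0.41 for PRDX5, 0.31 for GPX4 and 0.27 for SOD1. The part of that library's composition in these values was not tested. As a description over the 8 libraries, which share their scaling and the 2 groups, SOD2 and PRDX3 had a Pearson r of 0.95, and 0.57 over the 7 libraries without PKP2_het replicate 3. SOD2 and PRDX6 had 0.91 over 8 libraries and -0.34 over 7. GPX3 and PRDX1 had 0.84 over 8 and 0.88 over 7, and GPX4 and PRDX1 had 0.86 and 0.82. The second pattern was that of PKP2_het replicate 1, which was the highest of its group for 7 of the 10 genes.

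**Figure D4:**
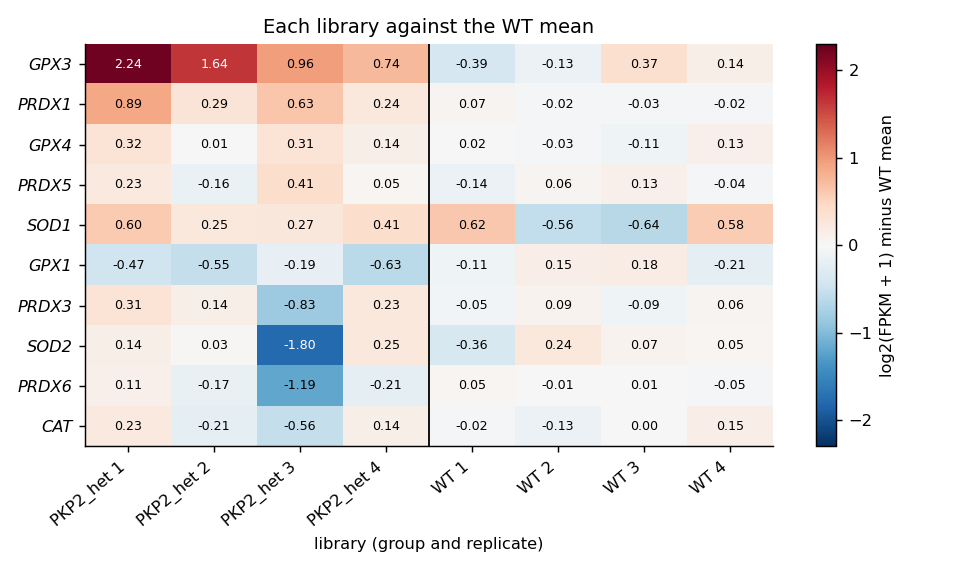
Log2(FPKM + 1) of each gene in each library minus its WT mean, with PKP2_het libraries left of the line and WT libraries right of it. Red is above and blue below the WT mean. GPX3 is above it in all 4 PKP2_het libraries, by 0.74 to 2.24, and SOD2 in PKP2_het replicate 3 is the lowest value, -1.80.

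For each of the 10 the most similar gene was found by Pearson r of log2(FPKM + 1) over the 8 libraries, as a description. The search covered the other tested genes that have a symbol, without LOC placeholders. Each r is the highest of all genes searched. Without PKP2_het replicate 3 the same pairs had r from 0.90 (VPS35) to 0.99 (TRIP6). TRIP6 was nearest to GPX3 (r = 0.99), IGSF23 to GPX1 (r = 0.98) and CREB3 to GPX4 (r = 0.97). IGSF23 had 3.13, 2.59, 6.52 and 2.60 FPKM in PKP2_het, against 12.98, 19.6, 24.8 and 9.94 FPKM in WT, and was called lower in PKP2_het (log2 fold change -1.92, limma adjusted p 0.0128). SMIM11A was nearest to PRDX1 (r = 0.98) and was called higher in PKP2_het (log2 fold change 0.62, limma adjusted p 0.0475). The nearest genes to PRDX3, PRDX5 and PRDX6 were UPRT, RFESD and VPS35, with r of 0.99, 0.97 and 0.99 in that order. A4GALT was nearest to SOD1 (r = 0.97), with 34.97 and 34.4 FPKM in WT replicates 1 and 4 and 20.6 and 19.2 FPKM in WT replicates 2 and 3. CTIF was nearest to SOD2 (r = 0.997) and CEP19 to CAT (r = 0.98).

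The remaining genes of the same families gave no call either. Of 10 other peroxidases and dismutases, 7 were tested, 0 passed limma's adjusted test, 2 had an unadjusted p under 0.05, and their median log2 fold change was 0.14. GPX8, a glutathione peroxidase of the endoplasmic reticulum, had 17.96, 15.02, 18.4 and 14.1 FPKM in PKP2_het, against 12.3, 12.6, 12.2 and 11.9 FPKM in WT, without overlap. Its log2 fold change was 0.38 with a limma adjusted p of 0.163. PRDX4, the peroxiredoxin of the endoplasmic reticulum, averaged 31.4 ± 3.96 FPKM in PKP2_het against 23.8 ± 2.66 FPKM in WT (n = 4 each, ± SD), with a limma adjusted p of 0.237. PRDX2, a cytosolic relative of PRDX1 abundant in red cells, averaged 158 ± 16.7 FPKM in PKP2_het against 130.4 ± 10.6 FPKM in WT (n = 4 each, ± SD), without overlap and with a limma adjusted p of 0.414. The erythroid markers beside it summed to 92.8 to 439 FPKM in PKP2_het and 53.2 to 517 FPKM in WT, 3 of 10 were above the filter, and HBZ was at 0 throughout. Of mean sums of 288 FPKM in PKP2_het and 247 FPKM in WT, HBB alone held 283 and 243 FPKM. The part of red cells in the PRDX2 level was not tested. SOD3, the extracellular dismutase, averaged 9.62 FPKM in PKP2_het and 8.88 FPKM in WT. GPX5 and GPX6 had 0 fragments in all 8 libraries, and GPX2 had 25 over all 8.

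The 13 lists of genes around these enzymes held 197 distinct genes of the table, of which 153 were tested. Limma called 1 higher and 1 lower in PKP2_het (1.31%, beside 1.86% of all tested genes). An unadjusted p under 0.05 was found for 25 of the 153 (16.3%), and 18 of 153 (11.8%) had groups without overlap, beside 12.8% and 9.19% of all tested genes. The median log2 fold change of the 153 was -0.02, equal to that of all tested genes at this rounding. Over all tested genes, 54.3% had a negative log2 fold change.

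The gene called higher was ATOX1, which carries copper to the copper pumps of the secretory pathway. ATOX1 had 22.9, 18.2, 30.3 and 21.3 FPKM in PKP2_het, against 9.02, 10.4, 9.47 and 11.04 FPKM in WT. Every PKP2_het library lay above every WT library, the log2 fold change was 1.12 (SE 0.15), and the limma adjusted p was 0.00571. CCS, which delivers copper to SOD1, averaged 22.8 ± 3.41 FPKM in PKP2_het against 20.5 ± 1.77 FPKM in WT (n = 4 each, ± SD), with overlap and a limma adjusted p of 0.686.

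The gene called lower was HMOX1, the inducible heme oxygenase and a target of the transcription factor NRF2. HMOX1 had 1.19, 1.64, 1.24 and 1.23 FPKM in PKP2_het, against 2.49, 3.13, 2.51 and 2.82 FPKM in WT. Its groups did not overlap, the log2 fold change was -0.68 (SE 0.10), and the limma adjusted p was 0.00826. Macrophages also express HMOX1. Of 13 macrophage markers 10 were tested, all 10 with a negative log2 fold change (54.3% of all tested genes had one) and 0 called. The macrophage markers summed to 27.1 to 73.8 FPKM in PKP2_het and 50.3 to 66.2 FPKM in WT. Their part in the HMOX1 difference was not tested. Both calls were lost when all libraries were set to equal FPKM sums, at 0.86 on the log2 scale (limma, adjusted p 0.327) for ATOX1 and at -0.84 (adjusted p 0.118) for HMOX1. Each call was kept in the other 18 of 19 alternatives. With equal nuclear FPKM sums ATOX1 was at 1.05 (limma, adjusted p 0.00503) and HMOX1 at -0.73 (adjusted p 0.0125).

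**Figure D5:**
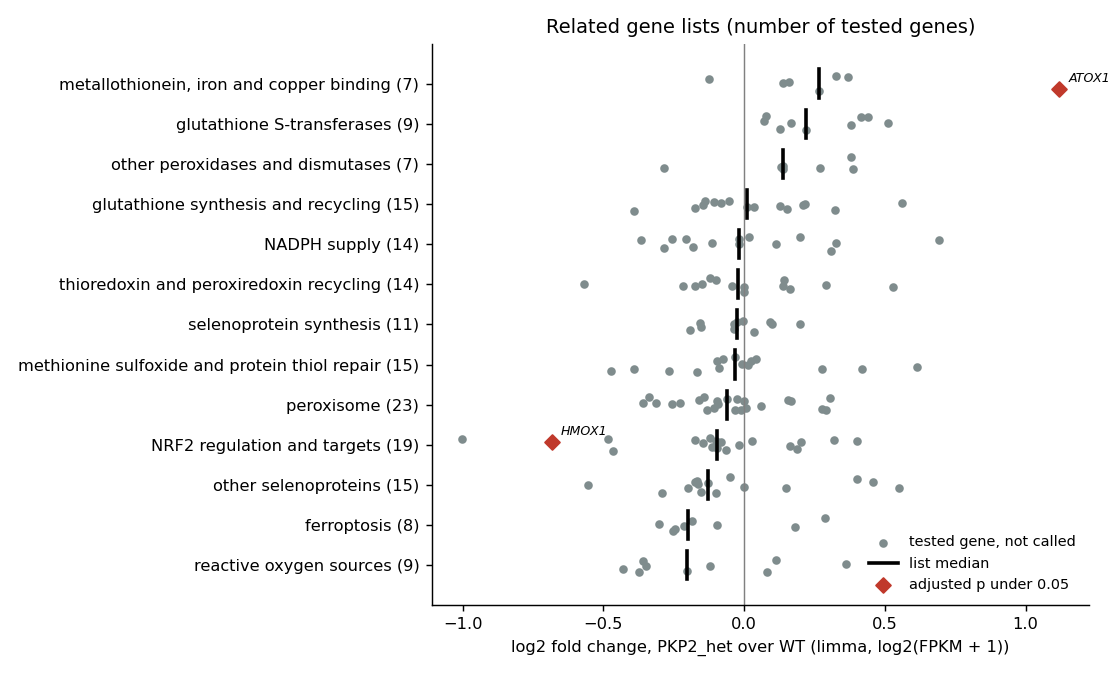
Log2 fold change of PKP2_het over WT for the tested genes of 13 related lists, each point a gene and each black bar the median of the list, with the number of tested genes in parentheses. ATOX1 at 1.12 and HMOX1 at -0.68 are the 2 genes with a limma adjusted p under 0.05.

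The list of NRF2 regulation and targets (19 tested, HMOX1 included) had 6 positive and 13 negative values, a median of -0.10 and HMOX1 as its 1 call. Its median was 0.04 without PKP2_het replicate 3. Of its 4 genes with an unadjusted limma p under 0.05, 1 was higher and 3 were lower in PKP2_het. EPHX1, the microsomal epoxide hydrolase, was closest to a call, with 50.1 ± 14.1 FPKM in PKP2_het against 98.6 ± 14.6 FPKM in WT (n = 4 each, ± SD), no overlap and a limma adjusted p of 0.0595. Without PKP2_het replicate 3, where 2.92% of all tested genes were called, EPHX1 was called, at -0.78 on the log2 scale (limma, adjusted p 0.019). AKR1B1, aldose reductase, averaged 55.9 FPKM in PKP2_het and 77.1 FPKM in WT, without overlap (limma, adjusted p 0.203). The metallothionein, iron and copper list (7 tested, ATOX1 included) had a median of 0.27, which was 0.14 without PKP2_het replicate 3 and 0.12 with library quality weights. With equal FPKM sums, which moved the median of all tested genes to -0.23, the list median was -0.003. COX17, a copper chaperone of cytochrome c oxidase, averaged 182 ± 59.1 FPKM in PKP2_het against 140.6 ± 16.98 FPKM in WT (n = 4 each, ± SD), with a limma adjusted p of 0.562. The metallothionein MT3 averaged 130 ± 43.9 FPKM in PKP2_het against 98.4 ± 22.8 FPKM in WT (n = 4 each, ± SD), with a limma adjusted p of 0.576.

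The glutathione S-transferases, which join glutathione to electrophiles, had positive log2 fold changes in 9 of 9 tested genes, with a median of 0.22 and 0 calls. These genes share the 8 libraries and their scaling, so their directions are not independent. Under equal FPKM sums, which moved the median of all tested genes to -0.23, the median of this list was 0.01. GSTK1, a mitochondrial and peroxisomal member, averaged 34.1 ± 6.003 FPKM in PKP2_het against 24.6 ± 1.25 FPKM in WT (n = 4 each, ± SD), without overlap and with a limma adjusted p of 0.19. GSTA4, which conjugates lipid peroxidation products, averaged 3.51 ± 0.988 FPKM in PKP2_het against 2.15 ± 0.678 FPKM in WT (n = 4 each, ± SD), with a limma adjusted p of 0.302. Glutathione synthesis and recycling (15 tested) had 8 positive and 7 negative values, a median of 0.01 and 0 calls. In it the glutaredoxin GLRX averaged 3.003 FPKM in PKP2_het and 4.25 FPKM in WT (limma, adjusted p 0.24), and the gamma-glutamyltransferase GGT5 averaged 5.17 FPKM in PKP2_het and 3.004 FPKM in WT, with 0.287. The groups did not overlap for GLRX or for GGT5.

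Thioredoxin and peroxiredoxin recycling (14 tested) had a median of -0.02 and 0 calls. TXNDC17, a small thioredoxin-related protein, had the smallest p of the list, with 25.1 ± 6.19 FPKM in PKP2_het against 16.8 ± 2.25 FPKM in WT (n = 4 each, ± SD) and a limma adjusted p of 0.213. TXNIP, the protein that binds and inhibits thioredoxin, averaged 208 ± 66.1 FPKM in PKP2_het against 305 ± 80.5 FPKM in WT (n = 4 each, ± SD), with a limma adjusted p of 0.371. The NADPH supply list (14 tested) had a median of -0.02 and 0 calls. In it ME3, the mitochondrial NADP-dependent malic enzyme, had 17.5, 17.6, 8.67 and 18.5 FPKM in PKP2_het, against 7.72, 9.48, 9.05 and 9.34 FPKM in WT. Replicate 3 was the one PKP2_het library within the WT range, and the limma adjusted p was 0.186. Without PKP2_het replicate 3, ME3 was the 1 called gene of the list, at 0.93 on the log2 scale (limma, adjusted p 0.00121). In that setting ATOX1, HMOX1 and EPHX1 were the other called genes of the 13 lists, and 2.92% of all tested genes were called. ALDH1L2, a mitochondrial folate enzyme that yields NADPH, averaged 1.73 ± 0.278 FPKM in PKP2_het against 2.32 ± 0.253 FPKM in WT (n = 4 each, ± SD), with a limma adjusted p of 0.283.

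The other selenoproteins (15 tested) had 5 positive and 10 negative values, a median of -0.13 and 0 calls. SELENOM, of the endoplasmic reticulum, averaged 19.7 ± 4.71 FPKM in PKP2_het against 12.9 ± 1.26 FPKM in WT (n = 4 each, ± SD), without overlap and with a limma adjusted p of 0.164. SELENOK, in the membrane of the same organelle, averaged 124 ± 19.7 FPKM in PKP2_het against 89.8 ± 9.81 FPKM in WT (n = 4 each, ± SD), without overlap and with a limma adjusted p of 0.196. The selenoprotein synthesis machinery (11 tested) had a median of -0.03 and 0 genes with an unadjusted p under 0.05. Its smallest p-values were those of LRP8, a receptor for selenoprotein P, and of SEPHS1, with limma adjusted p-values of 0.484 and 0.601.

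Methionine sulfoxide and protein thiol repair (15 tested) had a median of -0.03 and 0 calls. PARK7, which guards proteins against oxidation, averaged 226 ± 30.2 FPKM in PKP2_het against 167 ± 9.30 FPKM in WT (n = 4 each, ± SD), without overlap and with a limma adjusted p of 0.197. Peroxisome genes (23 tested, 7 positive and 16 negative) had a median of -0.06 and 0 calls. PEX16 and PEX19, which help place proteins in the peroxisomal membrane, had the smallest p-values of the list, with log2 fold changes of 0.30 and 0.28, limma adjusted p-values of 0.273 and 0.286, and groups without overlap for both. Ferroptosis genes (8 tested) had a median of -0.20 and 0 genes with an unadjusted p under 0.05, and without PKP2_het replicate 3 the median was 0.08. DHODH and ALOX12 had its smallest p-values, with log2 fold changes of 0.29 and -0.18 and limma adjusted p-values of 0.554 and 0.563. Sources of reactive oxygen (9 tested) had a median of -0.20 and 0 calls. In that list CYBA, a subunit of NADPH oxidases found in phagocytes and other cells, averaged 4.73 FPKM in PKP2_het and 6.72 FPKM in WT (limma, adjusted p 0.267).

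Markers of other cell types were set beside these results. The adipocyte markers (9 of 12 tested, 0 called) summed to 466 to 514 FPKM in PKP2_het and 356 to 540 FPKM in WT, with 5 positive and 4 negative log2 fold changes and a median of 0.05. The sum averaged 489 FPKM in PKP2_het and 475 FPKM in WT, much of it from LPL and CFD, and 3 of the 12 averaged under 1 FPKM. LPL, lipoprotein lipase, had the highest mean of these markers, at 178 ± 41.9 FPKM in PKP2_het against 161.5 ± 16.04 FPKM in WT (n = 4 each, ± SD), with a limma adjusted p of 0.815. CFD, next by mean, averaged 164 ± 35.8 FPKM in PKP2_het against 104 ± 12.01 FPKM in WT (n = 4 each, ± SD), with a limma adjusted p of 0.146. Cardiomyocyte markers summed to 32352 to 46052 FPKM in PKP2_het and 33274 to 38677 FPKM in WT. Endothelial markers summed to 270.4 to 552 FPKM in PKP2_het and 322 to 611.5 FPKM in WT, fibroblast markers to 302 to 626 and 328 to 423 FPKM in the same order, and smooth muscle and pericyte markers to 325 to 493 and 342 to 496 FPKM. Of the 12 endothelial markers, 11 had a negative log2 fold change, as had 54.3% of all tested genes, and 0 were called. Their median was -0.24, and that of the macrophage markers was also -0.24. T, NK and B cell markers summed to 5.13 to 9.19 FPKM in PKP2_het and 14.5 to 16.3 FPKM in WT, without overlap, and 9 of the 12 averaged under 1 FPKM. Most of that difference lay in GNLY, granulysin, which averaged 0.641 FPKM in PKP2_het and 6.56 FPKM in WT and was the 1 called gene of the 4 tested. Neutrophil markers summed to 0.341 to 0.796 FPKM in PKP2_het and 0.832 to 2.94 FPKM in WT, with 0 of 7 above the filter and MPO at 0 throughout. The part of these cell types in the levels of the 10 genes was not tested.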

How the data were processed

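RNA from right ventricular tissue was sequenced as paired reads. HISAT2 2.0.5 was the aligner, per the labels' protocols. How fragments were counted and normalised, and on which annotation, is not given in the sources used here. Values for 30550 genes were deposited by the authors as FPKM, with symbols, coordinates and lengths; 30335 of these genes matched RefSeq's table of Sscrofa11.1 with the same start and end. Multiplied by gene length, 100% of the deposited values fell on whole steps of 1 size per library (within 0.01 fragments), so fragments per gene could be recovered. The library factors equal median-of-ratios factors over 15715 genes, so libraries differ in FPKM sum and a level is relative to the median gene. Each of the 10 genes had 400 to 16477 fragments per library.

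Groups and replicate numbers came from the sample titles. The 10757 genes reaching 1 FPKM in 4 or more of the 8 libraries were tested as log2(FPKM + 1) with limma 3.58.1 in R 4.3.3 (variance trend, no replicate term, two-sided, Benjamini-Hochberg over all tested genes, called under 0.05). The pseudocount of 1 understates changes of low genes, and ratios of mean FPKM are without it. Intervals are limma's. Members were also compared by a two-sided exact permutation test of the difference of mean log2 values (70 relabellings, or 35 with 7 libraries). Its p-values are not adjusted over the members. The fit was also run on simulated fragments with the same spread setting for every gene and no library set apart. That run therefore does not speak to the spread of the present libraries.

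The members, the 13 related lists and the 9 cell type marker lists were chosen with earlier results of these data known. Named were the 10 members, PKP2, of each related list every called gene and the 2 of the rest with the smallest p (GP91-PHOX, one of them, stands with the libraries far from their group), of some marker lists genes with the highest mean, and for each member the gene most like it. Other list genes (CCS, GPX2, GPX5, GPX6, PRDX2 and SOD3) and the ratios were named after their values were seen. Of 221 list entries, 9 had no match and 2 matched by a synonym. Alternatives covered the pseudocount, the filter, scaling, library weights, robust variances, voom, a replicate term and each library left out in turn.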

Additional observations from a re-analysis of the deposited data

Results flagged for a closer look

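Within groups of 4, the lowest or highest library was compared with its nearest neighbour by Dixon's ratio for PKP2, the 10 genes and the list genes named by rule. Of 76 groups, 6 held a library far from the other 3, where chance alone gives about 1 in 20 groups. PRDX1 in WT replicate 1 was 23.8 FPKM, against 22.2 to 22.3 in the other WT libraries, and this was the one such group among the 10 genes. ME3 in PKP2_het replicate 3 was 8.67 FPKM, against 17.5 to 18.5 in the other PKP2_het libraries. DHODH, the mitochondrial dihydroorotate dehydrogenase, was 4.71 FPKM in PKP2_het replicate 3, against 2.27 to 2.63. In PKP2_het replicate 2, HMOX1 was 1.64 FPKM against 1.19 to 1.24, and PRDX4 was 25.5 FPKM against 32.7 to 33.9. Also in PKP2_het replicate 2, GP91-PHOX, the catalytic subunit of the phagocyte NADPH oxidase, was 1.20 FPKM against 0.378 to 0.451. This gene had 292 fragments over all 8 libraries. The macrophage marker sum in PKP2_het replicate 2 was 73.8 FPKM, the highest of the 8 libraries. Within WT, replicate 3 had the highest macrophage sum (66.2 FPKM) and the lowest GP91-PHOX (0.638 FPKM). The part of macrophages in the GP91-PHOX values was not tested.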

How the results depend on the processing

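The 200 called genes (124 higher, 76 lower) became 86 with at least 1 FPKM required in all 8 libraries, 95 with equal FPKM sums (50 higher, 45 lower), 181 with equal nuclear FPKM sums (97 higher, 84 lower), 659 with library quality weights and 105 with the replicate block. Equal FPKM sums moved the median log2 fold change of all tested genes to -0.23. Leaving out 1 library gave 115 to 314 called genes, lowest without WT replicate 4 and highest without PKP2_het replicate 3. Of the 10 genes, 0 were called; library quality weights called 2 (GPX3 and GPX1, limma adjusted p 0.0106 and 0.0136), and leaving out 1 library called 0 to 2. Over 19 alternatives GPX3 kept a log2 fold change of 1.11 to 1.61 (limma adjusted p 0.0106 to 0.528), GPX1 one of -0.72 to -0.40 (0.0136 to 0.654) and PRDX1 one of 0.26 to 0.61 (0.084 to 0.753). PRDX6 (-0.63 to -0.09) and SOD1 (0.11 to 0.59) also kept their direction. The log2 fold change reversed to -0.075 for GPX4 and -0.13 for PRDX5 with equal FPKM sums, both above the shifted median, and to -0.046 for PRDX5 and 0.13 for PRDX3 with library quality weights. Leaving out 1 library gave -0.15 to 0.23 for PRDX3, -0.54 to 0.14 for SOD2 and -0.21 to 0.055 for CAT, each positive without PKP2_het replicate 3. The cause was not tested. The labels do not say that replicate numbers pair the libraries. Same-numbered libraries had correlations of deviations of -0.39, 0.03, -0.23 and 0.20, and 1 of 4 PKP2_het libraries correlated best with its own number. With 4 libraries per group these values cannot exclude a pairing. The replicate block gave GPX3 a limma adjusted p of 0.205. With 4 libraries per group the exact permutation test cannot go below 0.0286, and with 1 left out not below 0.0571.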
